A study of Mus musculus with 12 samples.

Results

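The collagen chains are the genes of the authors' gene table whose symbol is Col, a type number, the letter a and a chain number. This rule, which used no measured value, found 44 of 25511 genes. They were measured by RNA sequencing in primary bone-forming cells (osteoblasts) from the calvariae, the flat skull bones, of neonatal C57Bl/6J mice, which the labels call osteoblast-like. Cells labelled wild type (WT) and cells labelled F2rl1 -/- (KO), a knockout of the gene of protease-activated receptor 2 (PAR2), were freed with collagenase, precultured for 48 h and kept for 4 days in BRFF-HPC1, a prostate-cell medium, with 20% fetal calf serum. In each genotype some cells got this medium as it was, and some got medium in which MDA-PCa-2b, a prostate cancer line of human origin, had grown for 48 h. The first is called unconditioned here and the second conditioned. The groups thus ask what the tumour cells' medium changes and whether the receptor matters for it. Of 12 samples in 4 groups of 3, 2 unconditioned WT libraries held the same values for 91.8% of the genes with fragments in them. They were counted as 1, which leaves 11 libraries and n = 2 in that group. Groups follow the sample titles, and 1 sample titled as unconditioned WT carries the KO genotype label.

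Collagens are trimers of chains that wind into a triple helix. Fibril-forming chains (types I, II, III, V, XI, XXIV and XXVII) build the fibres of bone, cartilage and skin. Fibril-associated chains with interrupted helices sit on those fibres, type VI forms beaded filaments around cells, and type IV forms the network of basement membranes. Types VIII and X form hexagonal networks, type VII anchors epithelia, and others span the plasma membrane or carry heparan sulfate chains. Type I collagen is the main organic component of bone matrix, and osteoblasts are its main source there.

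Promoter sequence is shown for the type VI pair, whose chains were lower in conditioned medium, and for the fibre chains Col1a2 and Col3a1, the most abundant collagens beside Col1a1. Such sequence was at hand for 35 of the 44 genes, in 38 windows. Each window is the 250 bases before a RefSeq start on the coding strand (GRCm38.p6), 5′ to 3′, and capitals mark 3 motifs. The CCAAT box was searched as its own letters or, on the other strand, as ATTGG. The GC box was searched as GGGCGG or, on the other strand, as CCGCCC. The TATA box was searched as TATAAA or, on the other strand, as TTTATA.
Col6a1 promoter, chr10:76726045-76726294, minus strand: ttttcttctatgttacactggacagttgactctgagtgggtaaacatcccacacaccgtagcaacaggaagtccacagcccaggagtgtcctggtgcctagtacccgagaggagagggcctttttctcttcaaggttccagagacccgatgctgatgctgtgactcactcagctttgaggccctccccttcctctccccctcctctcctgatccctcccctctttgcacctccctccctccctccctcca
Col6a2 promoter of a second RefSeq start, chr10:76623631-76623880, minus strand: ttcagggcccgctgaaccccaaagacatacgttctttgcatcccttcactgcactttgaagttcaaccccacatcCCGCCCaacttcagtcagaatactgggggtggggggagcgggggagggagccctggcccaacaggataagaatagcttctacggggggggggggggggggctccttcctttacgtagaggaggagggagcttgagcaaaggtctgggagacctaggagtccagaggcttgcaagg
Col1a2 promoter, chr6:4505368-4505617, plus strand: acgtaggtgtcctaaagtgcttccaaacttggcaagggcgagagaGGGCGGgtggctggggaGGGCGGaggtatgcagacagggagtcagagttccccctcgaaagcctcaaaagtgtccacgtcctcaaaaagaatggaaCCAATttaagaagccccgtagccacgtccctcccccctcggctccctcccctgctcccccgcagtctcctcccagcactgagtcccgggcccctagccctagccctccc
Col3a1 promoter, chr1:45311288-45311537, plus strand: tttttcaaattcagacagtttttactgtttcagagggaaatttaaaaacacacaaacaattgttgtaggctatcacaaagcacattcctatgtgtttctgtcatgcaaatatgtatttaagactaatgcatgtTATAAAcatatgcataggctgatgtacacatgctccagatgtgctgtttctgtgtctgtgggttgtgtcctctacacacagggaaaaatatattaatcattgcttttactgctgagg
The Col6a1 window held no match, and the Col6a2 window shown held a GC box. The other Col6a2 window, before the start of the measured gene, held 3 GC boxes and is not printed. The CCAAT box was in 13 of the 38 collagen windows, against 33.8% of all 32851 windows of the same length. The GC box was in 22 of 38, against 32.7%, and the TATA box in 5 of 38, against 12.4%. A match describes these letters only.

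Libraries held 15023994 to 16956754 fragments. F2rl1 itself was scarce and not lower in the libraries labelled KO. They had 33, 33 and 46 fragments in unconditioned medium and 31, 13 and 12 in conditioned medium, against 25 and 20 and against 14, 23 and 14 in those labelled WT. The table cannot show which part of the gene was deleted. Genotypes are thus given throughout by the sample titles, and this is what labelled means here. The sample titled WT1 Control carries the KO genotype label and was grouped by its title as unconditioned WT. Which library of that group it is cannot be told, and it bears on each comparison with that group. The KO-labelled libraries of number 0 stood apart from the other KO-labelled libraries of their medium in both media, so counts of calls, and values of the named genes where they turn on it, are also given without both. Leaving them out was decided from these same values and keeps only KO libraries 1 and 2 in each medium. Changes and adjusted p-values in that setting are thus a description and not a separate test. On the first principal component, with 45.7% of the variance, conditioned KO library 0 lay at -5.32 and the other conditioned KO libraries at 67.7 and 82.5. The conditioned WT libraries lay there at 16.9, 28.1 and -10.6. On the second component, unconditioned KO library 0 lay at -15.8, the other unconditioned KO libraries at 44.1 and 53.6, and the unconditioned WT libraries at 9.35 and -7.71. Each KO library 0 thus lay nearer to the WT libraries of its medium than to the other KO libraries on the component given. The osteoblast factor Runx2 was at 70.1 to 96.5 CPM (counts scaled to library size) in every library and the matrix protein gene Spp1 at 1591 to 11778 CPM, while Sp7, a factor downstream of Runx2, ran from 1.73 to 40.8 CPM and Alpl, the alkaline phosphatase of osteoblasts, from 12.0 to 106 CPM. Alpl was lower in conditioned medium in KO, at -1.68 (SE 0.47, adjusted p = 0.0366). The late markers Bglap, Ibsp and Dmp1 stayed under 1 CPM. The others of the list, Bglap2 and Phex, reached 2.495 CPM in conditioned KO library 1 and 1.62 CPM in conditioned WT library 1.

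Between 2.94% and 8.53% of a library's fragments came from collagen genes. In unconditioned medium the share was 6.17% and 5.17% in the WT-labelled libraries 0 and 2, and 4.73%, 7.93% and 8.53% in the KO-labelled libraries 0, 1 and 2. In conditioned medium it was 3.24%, 5.42% and 2.94% in the WT-labelled and 3.99%, 4.09% and 3.34% in the KO-labelled libraries 0, 1 and 2. The KO-labelled libraries thus did not overlap between media, whereas conditioned WT library 1 lay among the unconditioned libraries. The group means were 5.67% ± 0.702 (SD, n = 2) and 3.87% ± 1.35 (n = 3) for WT and 7.06% ± 2.04 and 3.81% ± 0.405 (n = 3 each) for KO. Some abundant genes have few fragments in the table (Gapdh 3 to 13 per library), so these are shares of the fragments it assigns. In bulk RNA, fewer cells of a type and less RNA per cell cannot be told apart.

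**Figure D1:**
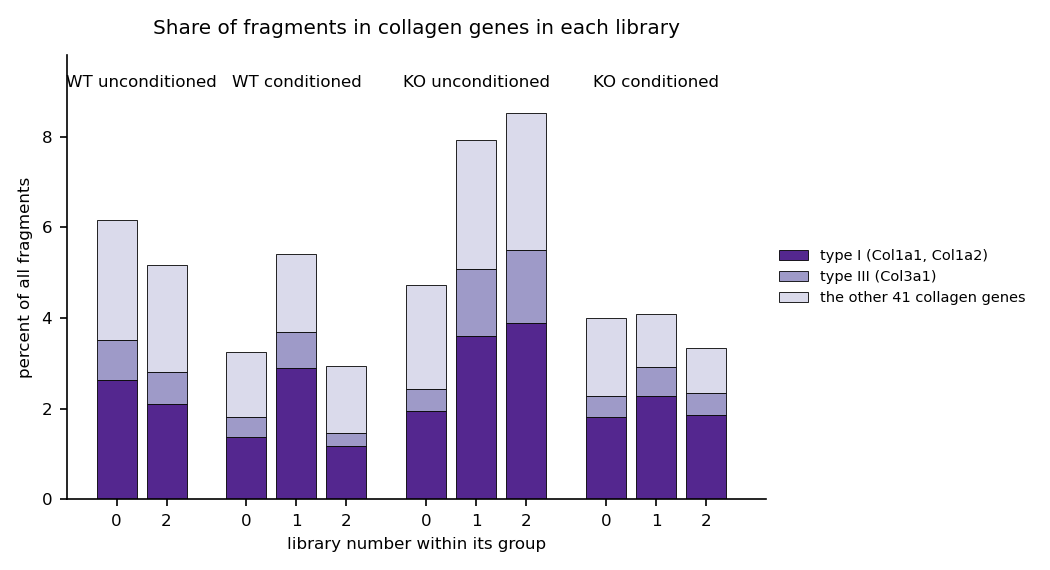
Stacked bars give the percent of all fragments that type I, type III and the other 41 collagen genes took in each of the 11 libraries. The highest bars are unconditioned KO libraries 1 and 2, at 7.93% and 8.53%, and the lowest is conditioned WT library 2, at 2.94%.

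Per length (FPKM, fragments scaled to transcript length and library depth), mean levels over the 11 libraries covered a wide range. Col1a1 and Col1a2, the chains of type I collagen, led with 2446 and 2003 FPKM, and Col3a1, the chain of type III, followed with 1285 FPKM. Next came Col5a2 at 441, Col6a1 at 430, Col5a1 at 325, Col12a1 at 316, Col2a1 at 299, Col6a2 at 283 and Col11a1 at 183 FPKM. The type IV chains Col4a1 and Col4a2 stood at 134 and 107 FPKM, and Col6a3 at 90.0 FPKM. In this order Col5a2 to Col6a2 lie close together beside their ranges over libraries, for example 245 to 792 FPKM for Col5a2 and 131 to 774 FPKM for Col6a1. At the other end 6 genes had at most 10 fragments in any library and were not tested: Col13a1, Col4a3, Col4a4, Col6a4, Col6a5 and Col6a6. The other 38 passed the filter on low counts.

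In this fit, collagen genes that passed the test between media were all lower in conditioned medium (edgeR quasi-likelihood test, adjusted p under 0.05 over 13603 genes). In the KO-labelled libraries 10 of 38 tested collagen genes were lower and 0 higher, against 8.58% of all genes lower, 9.68% higher and 18.3% in either direction. These were Col6a1, Col6a2, Col12a1, Col11a1, Col5a1, Col5a2, Col4a1, Col4a2, Col4a5 and Col28a1. In the WT-labelled libraries only Col6a2 was called lower by this test, against 0.551% of all genes lower, 1.23% higher and 1.78% in either direction. With the genotypes averaged 11 were lower, the 10 above and Col7a1, against 10.1% of all genes lower, 10.4% higher and 20.5% in either direction. The median log2 change of the 38 genes was -0.82 in KO and -0.32 in WT, against 0.02 and 0.01 for all genes, and 29 and 25 of them were negative.

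These counts depend on single libraries. Without conditioned KO library 0 the counts were 16 lower and 1 higher (Col19a1) in KO, against 21.9% of all genes lower and 22.9% higher, and 6 lower in WT, against 3.19% lower. With both KO libraries 0 left out they were 20 lower in KO, against 25.0% of all genes lower and 50.4% in either direction, and 8 lower in WT, against 5.98% lower, 5.75% higher and 11.7% in either direction. In that setting 20 were lower with genotypes averaged, against 24.0% of all genes lower, 24.6% higher and 48.6% in either direction. DESeq2, another count test, called 4 collagen genes lower in WT, against 3.04% of all genes lower, 3.17% higher and 6.21% in either direction. It called 17 lower in KO, against 12.4% lower and 24.8% in either direction, and 16 lower and 1 higher with genotypes averaged, against 12.5% lower, 12.1% higher and 24.6% in either direction. Without conditioned KO library 1 or 2 the KO count was 3 or 6 lower, against 0.799% and 2.25% of all genes lower, and without unconditioned KO library 1 or 2 it was 4 lower, against 1.39% and 1.46%. Of the averaged calls Col12a1 and Col5a1 were lost without unconditioned WT library 0 (adjusted p = 0.0564 and 0.0597), Col5a2 without that library, unconditioned KO library 1 or conditioned WT library 0 (adjusted p up to 0.0917), and Col28a1 without either unconditioned WT library, conditioned WT library 0 or conditioned KO library 1 (adjusted p up to 0.0676).

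The changes in KO were larger without both KO libraries 0 for all 10 genes called there. As those libraries were picked for standing apart in the same data, the values below are no separate test of the changes. Those of Col6a1 and Col6a2 were -2.35 (SE 0.17) and -2.10 (SE 0.17), that of Col12a1 was -2.73 (SE 0.21) and that of Col11a1 was -2.09 (SE 0.18), with adjusted p up to 0.000116. Those of Col4a1, Col4a2 and Col4a5 were -1.84, -1.47 and -0.94, those of Col5a1 and Col5a2 were -1.17 and -1.31, and that of Col28a1 was -2.71, with adjusted p up to 0.00507. In the same setting Col6a3 was also lower in KO (-0.98, SE 0.20, adjusted p = 0.00447), and the WT calls were Col6a1, Col6a2, Col11a1, Col12a1, Col4a1, Col4a2, Col28a1 and Col27a1.

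Counting overlap alone, every conditioned library lay below every unconditioned one for 14 of 38 genes in KO, against 15.4% of all genes, and for 13 in WT, against 20.6%. Col6a1, Col5a1, Col12a1, Col6a2, Col11a1, Col4a1, Col4a2, Col4a5, Col7a1 and Col27a1 did so in both genotypes, 10 of 38 against 10.3% of all genes. The groups did not overlap upward for Col9a3 and Col25a1 in KO, against 15.8%, and for Col9a3, Col15a1, Col20a1 and Col22a1 in WT, against 21.8%.

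Markers of other mesenchymal cells also stood at other summed levels in conditioned medium. The summed level of 6 tendon or fibroblast markers was 709 to 1104 CPM in the unconditioned and 261 to 692 CPM in the conditioned libraries, mostly from Pdgfra, and that of 5 smooth muscle and pericyte markers was 1192 to 1481 and 313 to 1134 CPM, mostly from Acta2. Single markers differed in direction: in KO Pdgfra was lower, at -1.66 (SE 0.39, adjusted p = 0.022), and Dpt higher, at 1.95 (SE 0.52, adjusted p = 0.0327), while Cspg4 was higher in both genotypes, at 111 to 158 CPM in the conditioned and 50.6 to 68.3 CPM in the unconditioned libraries. The summed macrophage markers were at 96.7 to 119 CPM in conditioned and 50.9 and 66.8 CPM in unconditioned WT libraries, and at 42.3 to 108 and 39.0 to 61.4 CPM in KO. The summed endothelial markers were at 7.96 to 15.3 CPM in conditioned and 3.95 to 7.83 CPM in unconditioned libraries, with Pecam1 and Emcn under 1 CPM. In that second list Myh11 and Rgs5, which define mature cells, stayed under 4 CPM. The part of these cells in the collagen changes was not tested.

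**Figure D2:**
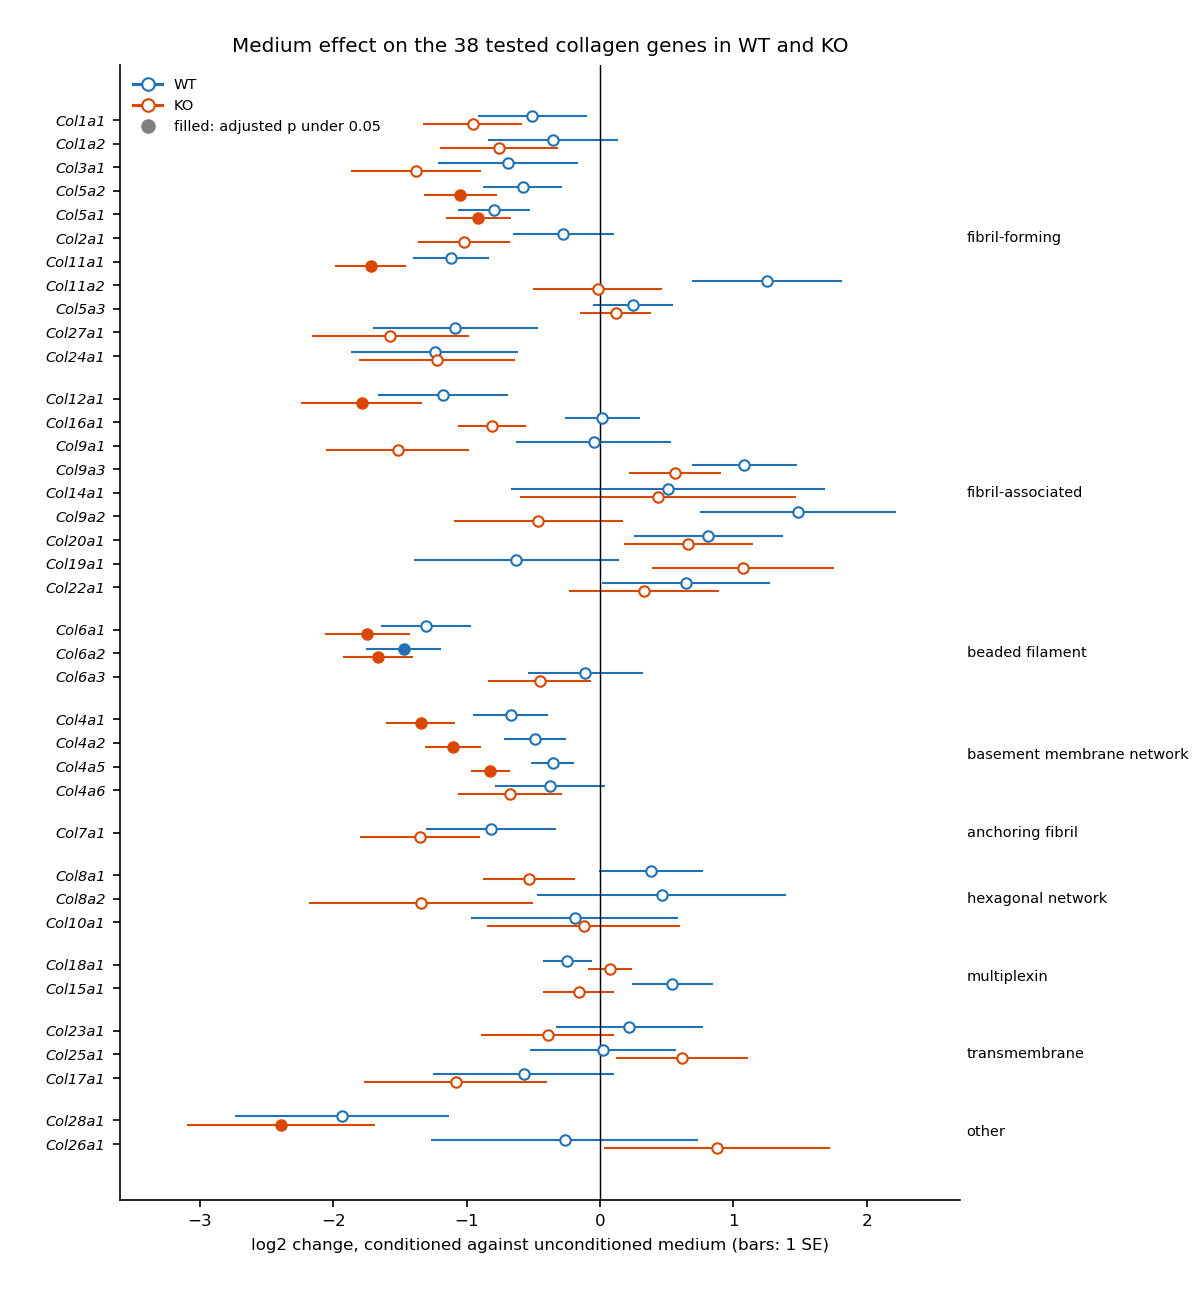
Points give the log2 change between conditioned and unconditioned medium for the 38 tested collagen genes, by structural class, in WT (blue) and KO (orange), with bars of 1 standard error. Filled points have an adjusted p under 0.05: 10 genes in KO and Col6a2 in WT, all below 0.

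Type VI collagen, the beaded filament that links cells to the interstitial matrix, is made of an alpha 1, an alpha 2 and a longer alpha 3 chain. Col6a1 (XLOC_002242; chromosome 10, 76708792 to 76726044, GRCm38) and Col6a2 (XLOC_002241; chromosome 10, 76595756 to 76623404) lie on the same chromosome. Col6a1 was at 2898 and 2585 CPM in the unconditioned and at 939, 1207 and 1179 CPM in the conditioned WT-labelled libraries. In the KO-labelled ones it was at 2547, 3038 and 3354 CPM and at 1415, 691 and 561 CPM. Every conditioned library lay below every unconditioned one, with KO library 0 the highest of the conditioned. The log2 change was -1.74 (SE 0.32, adjusted p = 0.0102) in KO and -1.31 (SE 0.34, adjusted p = 0.0842) in WT, and averaged it was -1.52 (SE 0.23, adjusted p = 0.00234). Leaving out conditioned KO library 1 ended the KO call (adjusted p = 0.0547).

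Col6a2, the alpha 2 chain, was at 1906 and 1690 CPM unconditioned and at 542, 746 and 655 CPM conditioned in WT, and at 1600, 1740 and 1945 CPM and 808, 465 and 394 CPM in KO. The groups again did not overlap. In the edgeR fit with all libraries Col6a2 was the one collagen gene called in both genotypes. Its log2 changes were -1.67 (SE 0.26, adjusted p = 0.00685) for KO and -1.47 (SE 0.28, adjusted p = 0.0343) for WT. DESeq2 also called Col6a1, Col11a1 and Col5a1 lower in both. The KO call held without each of the 11 libraries in turn, and the WT call was lost without 7 of them (adjusted p up to 0.252, without unconditioned WT library 2; the others were unconditioned WT 0, conditioned WT 0 and 1, conditioned KO 1, and unconditioned KO 1 and 2).

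Col6a3, the long alpha 3 chain, did not pass the test in either genotype. Its levels were 1342 and 1101 CPM unconditioned and 1083, 1237 and 1075 CPM conditioned in WT, and 1134, 806 and 859 CPM and 1200, 516 and 330 CPM in KO. WT libraries overlapped between media, and KO library 0 was slightly higher in conditioned medium while KO libraries 1 and 2 were lower. The log2 changes were -0.11 (SE 0.43, adjusted p = 0.948) for WT and -0.45 (SE 0.39, adjusted p = 0.417) for KO. Per length, Col6a3 stood at 0.182 and 0.171 of Col6a1 in the unconditioned WT libraries and at 0.448, 0.416 and 0.372 in the conditioned ones. In KO the ratios were 0.171, 0.109 and 0.105 unconditioned and 0.333, 0.307 and 0.244 conditioned. All conditioned libraries had a higher ratio than all unconditioned ones, whereas Col6a1 to Col6a2 ranged from 1.33 to 1.68 over all libraries.

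**Figure D3:**
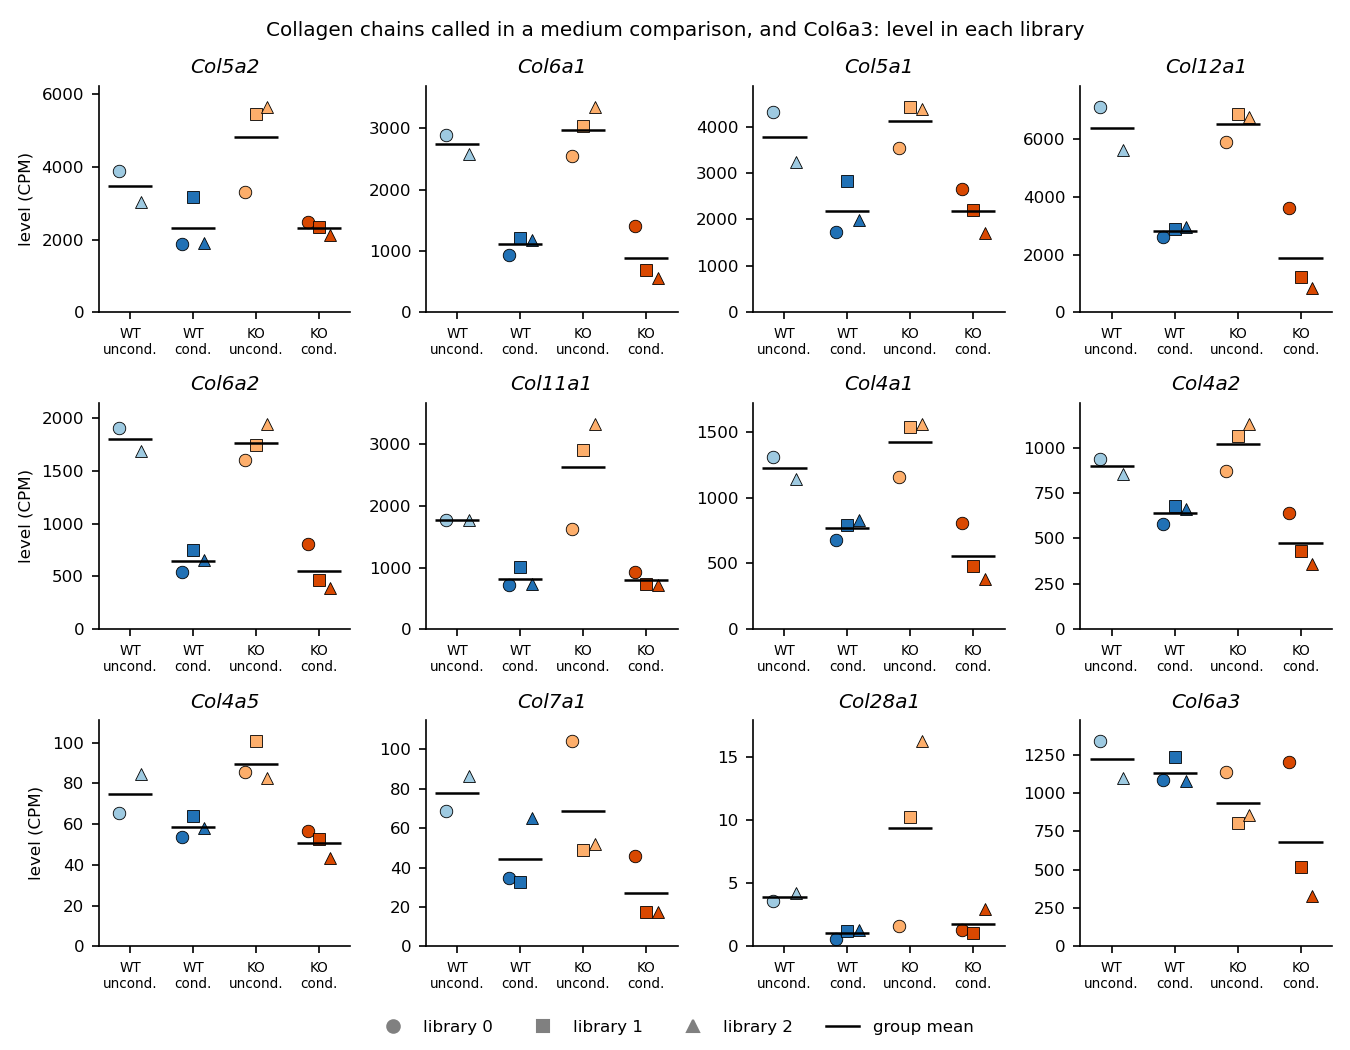
Levels in CPM of the 11 collagen genes called in a medium comparison, and of Col6a3, in each library of WT and KO (point shapes give the library number, lines the group means; each panel has its own axis from 0). Conditioned libraries sit below the unconditioned ones of their genotype for Col6a1, Col6a2, Col12a1, Col11a1 and the 3 type IV chains, while Col6a3 overlaps.

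Among the fibril-forming genes 3 of 11 were called lower in KO and none in WT by edgeR, against 8.58% and 0.551% of all genes. Col11a1 (XLOC_014219; chromosome 3, 114030540 to 114220326), a chain of type XI collagen, which nucleates thin fibrils, was at 1776 and 1771 CPM unconditioned and 722, 1006 and 727 CPM conditioned in WT, and at 1633, 2910 and 3333 CPM and 925, 742 and 724 CPM in KO. The media did not overlap. Its log2 change was -1.72 (SE 0.26, adjusted p = 0.00668) in KO, where the call held without each library in turn, and -1.12 (SE 0.28, adjusted p = 0.0785) in WT. Col5a1 and Col5a2 are chains of type V collagen, which sets fibril width. Col5a1 was at 3532, 4429 and 4385 CPM unconditioned and 2651, 2200 and 1712 CPM conditioned in KO, and at 4313 and 3237 CPM and 1728, 2819 and 1982 CPM in WT. Col5a2 was at 3316, 5453 and 5658 CPM and 2493, 2359 and 2126 CPM in KO, and at 3896 and 3044 CPM and 1889, 3165 and 1908 CPM in WT. The KO media did not overlap for either gene, while in WT conditioned library 1 was the highest of the conditioned and for Col5a2 lay above unconditioned library 2. In KO they changed by -0.91 (SE 0.24, adjusted p = 0.0327) and -1.05 (SE 0.27, adjusted p = 0.0294). In WT Col5a1 had -0.79 (SE 0.27, adjusted p = 0.176) and Col5a2 -0.58 (SE 0.30, adjusted p = 0.405). Both KO calls were lost without conditioned KO library 1 or 2 or unconditioned KO library 1 or 2 (adjusted p up to 0.115 for Col5a1 and 0.11 for Col5a2).

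The most abundant chains did not pass the edgeR test with all libraries, while DESeq2 called Col1a1 and Col3a1, but not Col1a2, lower in KO. Col1a1 was at 15795 and 12989 CPM unconditioned and 7454, 16239 and 6654 CPM conditioned in WT, so conditioned library 1 lay above both unconditioned ones. In KO it was at 12544, 20990 and 22126 CPM and at 10901, 10022 and 7800 CPM, with all conditioned libraries below. The log2 changes were -0.95 (SE 0.37, adjusted p = 0.0954) for the KO libraries and -0.51 (SE 0.41, adjusted p = 0.642) for the WT libraries, and those of its partner Col1a2 were -0.76 (SE 0.44, adjusted p = 0.237) for KO and -0.35 (SE 0.49, adjusted p = 0.819) for WT. Col3a1, singled out here after its values were seen, was at 5214, 16498 and 17910 CPM in the unconditioned and 4849, 5937 and 4429 CPM in the conditioned KO libraries, with -1.38 (SE 0.49, adjusted p = 0.0718). Without both KO libraries 0 the KO changes of Col1a1 and Col3a1 were -1.27 (SE 0.41, adjusted p = 0.0302) and, for the latter, -1.73 (SE 0.45, adjusted p = 0.0135).

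The cartilage chain Col2a1, also chosen after its values were seen, was at 1550, 711 and 621 CPM in conditioned KO libraries 0, 1 and 2, against 1627, 1849 and 2355 CPM unconditioned. It did not pass the edgeR test in KO with all libraries (-1.02, SE 0.35, adjusted p = 0.0652) but did without both KO libraries 0 (-1.66, SE 0.25, adjusted p = 0.000925). DESeq2 called Col2a1 lower in KO with all libraries. The cartilage chains Col11a2, Col9a3 and Col9a2, named after their values were seen, were highest in conditioned WT library 0, at 201, 139 and 55.2 CPM. In the other libraries they reached at most 97.1, 63.9 and 20.0 CPM. The summed level of 6 chondrocyte markers was highest in that library too, at 508 CPM against 157 to 428 CPM elsewhere, with Acan at 231 CPM and Matn1 at 11.7 CPM, against at most 162 and 0.559 CPM. Comp, Hapln1 and Matn3 were highest in unconditioned libraries. Their part in these levels was not tested. In WT the log2 change was 1.08 (SE 0.39, adjusted p = 0.212) for Col9a3, 1.49 (SE 0.73, adjusted p = 0.388) for Col9a2 and 1.25 (SE 0.56, adjusted p = 0.328) for Col11a2, so none passed. The minor fibril chains Col24a1 and Col27a1 did not pass the edgeR test either with all libraries, with -1.22 (SE 0.58, adjusted p = 0.157) and -1.57 (SE 0.59, adjusted p = 0.0852) in KO. Of these chains DESeq2 called Col27a1 lower in KO. Both were lower when KO libraries 0 were left out, at -2.20 (SE 0.45, adjusted p = 0.00423) and, for Col27a1, -2.77 (SE 0.34, adjusted p = 0.00049).

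Of the fibril-associated genes 1 of 9 was called lower in KO, a share near the 8.58% of all genes. Col12a1 (XLOC_023975; chromosome 9, 79598987 to 79718722), a long chain that decorates type I fibrils, was at 7129 and 5617 CPM unconditioned and 2612, 2896 and 2942 CPM conditioned in WT. In KO it was at 5892, 6887 and 6769 CPM and at 3610, 1207 and 848 CPM. No conditioned library reached an unconditioned one, and KO library 0 was the highest of the conditioned libraries. The log2 change was -1.79 (SE 0.45, adjusted p = 0.0278) in KO and -1.18 (SE 0.49, adjusted p = 0.28) in WT. The KO call was lost without conditioned KO library 1 or 2 or unconditioned KO library 1 or 2 (adjusted p up to 0.109).

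Col16a1, the next most abundant of this class, did not pass the edgeR test with all libraries (KO -0.81, SE 0.25, adjusted p = 0.0512). It passed without both KO libraries 0 (-1.29, SE 0.17, adjusted p = 0.000503), and DESeq2 called it lower in KO with all libraries. Col9a1, picked after its values were seen, had -1.52 (SE 0.53, adjusted p = 0.072) in KO, where unconditioned libraries 0, 1 and 2 were at 26.8, 83.9 and 150 CPM and the conditioned ones at 28.4 to 32.9 CPM. It was lower without both KO libraries 0, at -1.93 (SE 0.49, adjusted p = 0.0154), and DESeq2 called it lower in KO with all libraries. Col14a1, singled out likewise, varied by library rather than by medium: it was at 67.9 and 21.0 CPM in unconditioned and 28.6, 151 and 10.9 CPM in conditioned WT libraries, and at 8.92, 64.9 and 70.8 CPM and 14.6, 108 and 72.8 CPM in KO. Both low and high libraries thus occurred in each medium, and KO library 0 was low in both.

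Of the type IV genes 3 of 4 were called lower in KO and none in WT by edgeR, against 8.58% and 0.551% of all genes. Col4a1, which with Col4a2 makes the common basement membrane trimer, was at 1308 and 1139 CPM unconditioned and 681, 796 and 828 CPM conditioned in WT, and at 1158, 1539 and 1563 CPM and 810, 482 and 383 CPM in KO. The media did not overlap in either genotype. Its KO change was -1.35 (SE 0.26, adjusted p = 0.0115), against -0.67 (SE 0.28, adjusted p = 0.294) in WT. Col4a2 changed by -1.10 (SE 0.21, adjusted p = 0.0113) in KO, and its WT value was -0.49 (SE 0.23, adjusted p = 0.359). Both KO calls were lost without conditioned KO library 1, unconditioned KO library 1 or unconditioned KO library 2 (adjusted p up to 0.0595 for Col4a1 and 0.0578 for Col4a2). Averaged over genotypes Col4a1 had -1.01 (SE 0.19, adjusted p = 0.00615) and Col4a2 -0.79 (SE 0.15, adjusted p = 0.00692), and these calls held without each library.

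Col4a1 (XLOC_022255; 11198423 to 11312826) and Col4a2 (XLOC_021634; 11312829 to 11449287) lie head to head on chromosome 8 with 2 bases between them, and they share a bidirectional promoter. Per length their ratio was 1.28 to 1.40 in all unconditioned and 1.03 to 1.22 in all conditioned libraries, without overlap. Col4a5, a chain of the X chromosome found in kidney and other basement membranes, was at 85.4, 101 and 82.6 CPM unconditioned and 56.4, 52.5 and 43.2 CPM conditioned in KO. Its change was -0.82 (SE 0.15, adjusted p = 0.00929) in KO, held without each library, and -0.36 (SE 0.16, adjusted p = 0.332) in WT.

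Beyond these classes Col28a1 was called in KO, and both Col28a1 and Col7a1 when genotypes were averaged, all at low levels. Of all genes 18.3% were called in KO and 20.5% when averaged. Col28a1, a chain of type XXVIII with a von Willebrand factor A domain at each end, had 24, 145 and 242 fragments unconditioned and 21, 17 and 55 conditioned in KO. In WT it had 55 and 60, and 9, 18 and 19. The KO media overlapped through unconditioned library 0. The change was -2.39 (SE 0.71, adjusted p = 0.0438) in KO, a call lost without each library except unconditioned KO library 0 (adjusted p up to 0.157), and -1.93 (SE 0.80, adjusted p = 0.282) in WT. Col7a1, the anchoring fibril chain, whose entry in the table also names Mir711, was at 104, 48.9 and 52.2 CPM unconditioned and 45.7, 17.3 and 17.6 CPM conditioned in KO, and at 68.5 and 86.7 CPM and 34.5, 32.6 and 65.2 CPM in WT. Its averaged change was -1.08 (SE 0.33, adjusted p = 0.0444), a call lost without all libraries in turn except conditioned KO library 0 and conditioned WT library 2 (adjusted p up to 0.14).

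The hexagonal network, multiplexin and transmembrane genes had no call by edgeR with all libraries, while between media 18.3% of all genes were called in KO and 1.78% in WT. Col8a1, the more abundant chain of type VIII, had log2 changes of 0.38 (SE 0.39, adjusted p = 0.736) for WT and -0.53 (SE 0.35, adjusted p = 0.287) for KO. Its partner Col8a2 varied between libraries of one group, with 45.4, 289 and 404 CPM in unconditioned KO and 53.0, 231 and 27.5 CPM in conditioned WT, so that the ratio of Col8a1 to Col8a2 ran from 1.02 to 9.06. Col18a1, the source of endostatin, was at 214 to 339 CPM in every library, while Col15a1, the other multiplexin, was at 3.52 to 7.14 CPM. Of the transmembrane genes, Col23a1 was at 8.03 to 47.8 CPM and Col25a1 at 1.32 to 5.4 CPM. Without both KO libraries 0, Col23a1 was called lower in conditioned medium in KO, against 25.0% of all genes lower. It was then also called lower with genotypes averaged, against 24.0%, and with a negative interaction, against 9.71%. Col26a1 had 1 to 18 fragments.

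**Figure D4:**
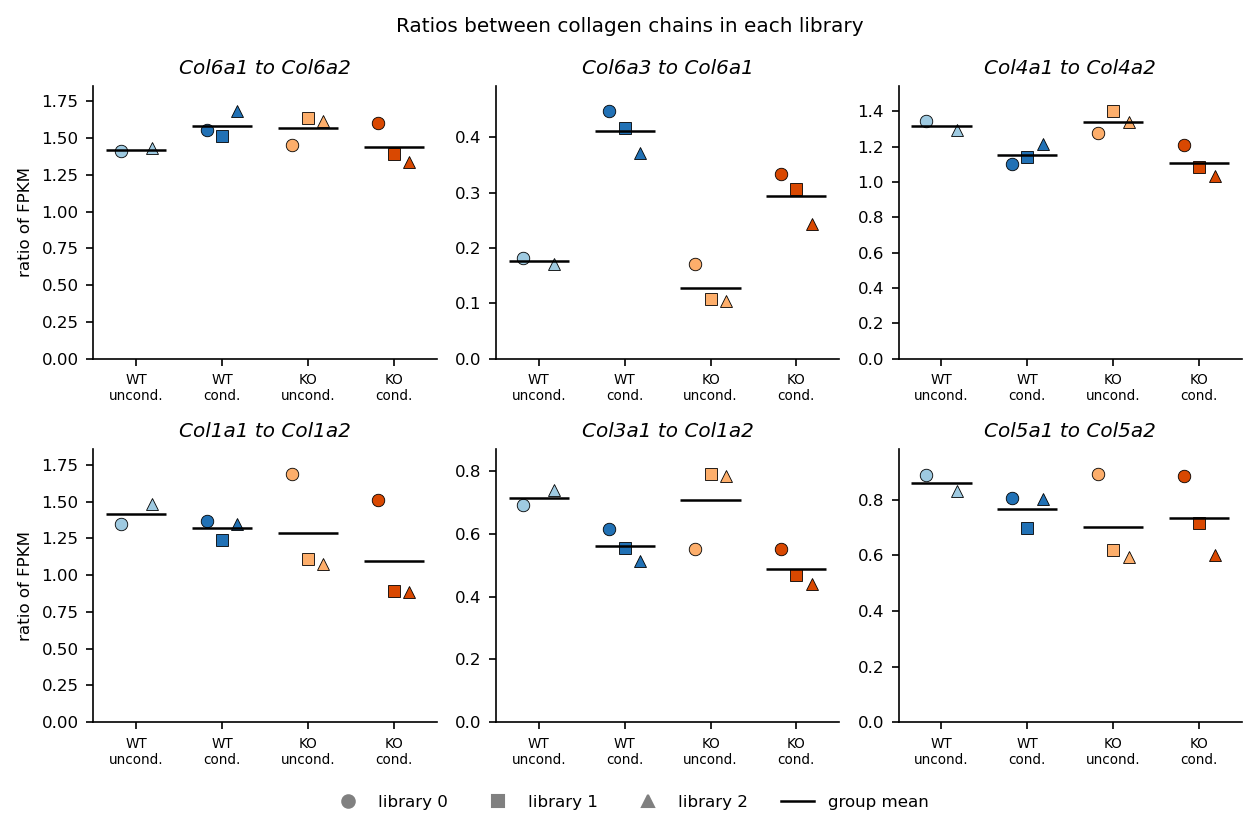
Ratios of FPKM between chains, in each library (shapes give the library number, lines the group means; axes start at 0). Col6a3 to Col6a1 is higher, and Col4a1 to Col4a2 lower, in every conditioned library than in every unconditioned one, while Col1a1 to Col1a2 and Col5a1 to Col5a2 separate KO library 0 from KO libraries 1 and 2.

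Other chain ratios separated KO library 0 from KO libraries 1 and 2. Col1a1 to Col1a2 was 1.69 and 1.51 in KO library 0 (unconditioned and conditioned) and 1.24 to 1.48 in the WT libraries. In KO libraries 1 and 2 it was 0.888 to 1.11, below all of those. Col5a1 to Col5a2 was 0.893 and 0.885 in KO library 0 and 0.593 to 0.718 in KO libraries 1 and 2. Col3a1 to Col1a2 was 0.692 to 0.790 in the unconditioned libraries apart from KO library 0, at 0.551, and 0.441 to 0.614 in the conditioned ones.

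Between the genotypes as labelled, no collagen gene passed the edgeR test in either medium. In unconditioned medium 0 of 38 were called, against 0.00735% of all genes, none had an unadjusted p under 0.05 (294 of all genes had), and DESeq2 also called 0, against 0.00553%. Levels did not overlap for Col9a3, Col23a1, Col27a1 and Col24a1, lower in KO, against 8.01% of all genes, and for Col8a1, higher, against 9.12%. Col11a1 was at 1633, 2910 and 3333 CPM in KO and 1776 and 1771 CPM in WT, and its difference was 0.57 (SE 0.29, adjusted p = 0.998). Without both KO libraries 0 it was 0.82 (SE 0.17, adjusted p = 0.0391), the one collagen call, against 2.13% of all genes higher, 2.74% lower and 4.86% in either direction. Col8a2 had 1.71 (SE 0.98, adjusted p = 0.998).

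In conditioned medium 0 of 38 were called, against 0.0% of all genes, and DESeq2 also called 0, against 0.00553%. At an unadjusted p under 0.05 there were 4 collagen genes (and 1897 of all genes), the cartilage chains Col9a2 (-1.73, SE 0.64), Col9a3 (-1.13, SE 0.34) and Col11a2 (-1.30, SE 0.49) and the hemidesmosome chain Col17a1 (-1.63, SE 0.67), all named after their values were seen, each with an adjusted p of 0.357. Of these Col9a2, Col9a3 and Col17a1 did not overlap between genotypes, 3 lower of 38 against 4.22% of all genes, and none was higher, against 4.65%. Col17a1 had 9, 3 and 15 fragments in KO and 17, 24 and 33 in WT. Both this comparison and the WT medium comparison use the conditioned WT libraries, of which library 0 was the highest for Col9a2, Col9a3 and Col11a2.

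Without both KO libraries 0, 12 collagen genes were lower and 1 higher in conditioned KO against WT, while 21.1% of all genes were lower and 21.4% higher, 42.6% together. The largest difference in size was that of Col27a1, at 18.3, 10.5 and 12.5 CPM in WT and at 13.9, 3.41 and 1.73 CPM in KO libraries 0, 1 and 2. KO library 0 lay within WT and the other KO libraries below it. The log2 difference was -1.12 (SE 0.59, adjusted p = 0.371) with all libraries and -2.42 (SE 0.33, adjusted p = 0.00133) without. Those of Col23a1, a transmembrane chain, were -0.96 (SE 0.50, adjusted p = 0.371) with and -1.93 (SE 0.30, adjusted p = 0.00249) without KO libraries 0. Those of Col24a1 were -0.39 (SE 0.59, adjusted p = 0.714) with and -1.51 (SE 0.43, adjusted p = 0.0222) without them. Col12a1 moved from -0.58 (SE 0.44, adjusted p = 0.481) to -1.44 (SE 0.19, adjusted p = 0.00106), and Col6a3 from -0.73 (SE 0.39, adjusted p = 0.374) to -1.41 (SE 0.19, adjusted p = 0.00121). Col19a1, a fibril-associated chain, was the one higher without KO libraries 0, at 1.68 (SE 0.53, adjusted p = 0.0326), and had 1.21 (SE 0.69, adjusted p = 0.391) with them. Without conditioned KO library 0 alone 13 collagen genes were lower and Col19a1 higher, against 15.9% of all genes lower and 17.3% higher, and with it none was called.

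Whether the medium effect differed between genotypes was tested as an interaction, and 0 of 38 collagen genes passed, against 0.0% of all genes. None had an unadjusted p under 0.05 (412 of all genes had), and DESeq2 called 0. The change in KO minus that in WT was negative for 32 of the 38 genes, with a median of -0.47 against -0.02 for all genes, and both genotypes' values for the named chains stand above. It was -0.61 (SE 0.66, adjusted p = 0.837) for Col12a1, -0.44 (SE 0.46, adjusted p = 0.836) for Col6a1 and -0.68 (SE 0.39, adjusted p = 0.819) for Col4a1. Without both KO libraries 0 these were -1.54 (adjusted p = 0.0108), -1.04 (adjusted p = 0.019) and -1.16 (adjusted p = 0.0109), among 9 collagen genes with a negative interaction, against 9.71% of all genes lower, 9.52% higher and 19.2% in either direction. So the call in KO and not in WT is not shown to be a difference between genotypes with all libraries.

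Some of the genes that modify, export, process and crosslink collagen were called lower in conditioned medium in KO. None was called in either direction in WT, where 1.78% of all genes were. The counts below are to be read against 8.58% of all genes lower in KO. Of the prolyl and lysyl hydroxylases and their partners, which modify the chains in the endoplasmic reticulum, 12 of 14 tested were lower in KO (median log2 -0.66, against 0.02 for all genes). P4ha2, a subunit of prolyl 4-hydroxylase, had -1.41 (SE 0.24, adjusted p = 0.0082), and Plod2, which hydroxylates telopeptide lysines, -0.97 (SE 0.18, adjusted p = 0.0111). Of the chaperone and export genes 5 of 8 were lower (median -0.74), among them Serpinh1, the collagen chaperone HSP47, at -0.91 (SE 0.22, adjusted p = 0.0228), and Sec24d, a coat protein of the vesicles that carry procollagen, at -0.88 (SE 0.20, adjusted p = 0.0203). Ctage5, another export gene, had -0.03 (SE 0.14, adjusted p = 0.883), and the prolyl 3-hydroxylase gene Leprel1 had 0.57 (SE 0.46, adjusted p = 0.399). Of the propeptide-processing genes Bmp1 and Tll1, 2 of 7, were lower.

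Of the crosslinking genes Lox and Loxl3, 2 of 5, were lower in KO (median -1.10). Lox, the oxidase that starts the crosslinks of collagen and elastin, was at 6562, 10665 and 10022 CPM in unconditioned and 3452, 1352 and 1025 CPM in conditioned KO libraries, and at 7482 and 6230 CPM and 2103, 3457 and 2636 CPM in WT. All conditioned libraries lay below all unconditioned ones. Its change was -2.23 (SE 0.44, adjusted p = 0.0125) in KO and -1.33 (SE 0.47, adjusted p = 0.194) in WT. Loxl4, another lysyl oxidase gene, was at 81.5, 55.5 and 62.5 CPM in unconditioned and 64.4, 122 and 149 CPM in conditioned KO libraries, with 0.75 (SE 0.26, adjusted p = 0.0701). It was higher in KO without both KO libraries 0 (adjusted p = 0.000176), and the other 4 crosslinking genes were then lower, with Lox at -3.12 (SE 0.26, adjusted p = 0.000109). In that setting 25.4% of all genes were higher and 25.0% lower in KO. Of the collagen receptors the integrin chains Itga1, Itga11 and Itgb1, 3 of 8, were lower in KO, while the receptor kinase gene Ddr2 had 0.18 (SE 0.14, adjusted p = 0.368).

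Of 6 collagen-degrading proteases tested, 2 were called higher in KO, against 9.68% of all genes, and 1 in WT, against 1.23%. Ctsk, the collagen-cleaving cathepsin K, had 1.33 (SE 0.24, adjusted p = 0.0103) in KO and 1.46 (SE 0.28, adjusted p = 0.0373) in WT. Mmp14, a membrane-bound collagenase, had 0.91 (SE 0.20, adjusted p = 0.0169) in KO, and its WT value was 0.95 (SE 0.23, adjusted p = 0.0644). The others did not pass: in KO Mmp2 had 0.33 (adjusted p = 0.328), Mmp13 0.15 (adjusted p = 0.855), Mmp9 0.36 (adjusted p = 0.836) and Mmp8 -2.11 (adjusted p = 0.082). The calls in KO were 2 higher and 1 lower without both KO libraries 0, against 25.4% of all genes higher and 25.0% lower in that setting.

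The authors' deposited table of start-site groups, made with Cuffdiff, was also read for the collagen genes. The authors' deposited table calls 18 of 53 collagen groups significant between media in KO, all lower in conditioned medium, against 16.76% of the groups tested. The 53 are all collagen groups listed, whether or not they were tested, while each percent of start-site groups here is of tested groups only. The bases are thus unlike. In WT the authors' deposited table gives 13, with 10 lower and 3 higher, against 8.757%, and the higher ones are Col9a2, Col9a3 and Col11a2. The authors' run held both identical unconditioned WT libraries as separate replicates. This bears on each of its comparisons with that group, here the medium in WT and the genotypes in unconditioned medium. Between genotypes the authors' deposited table gives 4 in unconditioned medium, with 3 higher and 1 lower in KO, against 2.206%, and 8 in conditioned medium, all lower in KO, against 7.202%. For promoter use the authors' deposited table gives 0 of 7 tested collagen genes in these comparisons, against 0.6781% to 1.475% of all genes tested. Of 9 collagen genes with several start-site groups, Col16a1 had its major group at 61.1% ± 6.74 (SD, n = 3) of the gene's fragments in unconditioned and 78.0% ± 6.39 (n = 3) in conditioned KO, and at 70.4% ± 3.81 (n = 2) and 71.1% ± 6.40 (n = 3) in WT.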

How the data were processed

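The submitters' processing notes name TopHat2 2.0.9, Cufflinks and Cuffdiff 2.1.1, CASAVA 1.8.2 and the build GRCm38, and the libraries do not mark strand, so antisense fragments cannot be told apart. Expected counts are the raw fragments per gene and library of the authors' table (94.3% whole), here rounded. The authors' FPKM values, scaled between libraries by Cuffdiff, gave levels between genes and chain ratios. The authors' deposited p-values and q-values were used as counts of significant tests. Other columns, such as lengths and positions, are used per the file headers, with starts moved to the first base of the gene.

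Entries without a symbol (1714, 2.69% to 3.10% of fragments) were left out. Unconditioned WT libraries 0 and 1 agreed far more closely than separate sampling would give and were averaged. Of the genes with fragments in them, 91.8% had equal values. Their chi-square was 759 with 15474 degrees of freedom, while the next pair had 94766 with 15124. The table's numbers 0 to 2 are not tied to the titles' 1 to 3. The 11 libraries were fitted as 4 groups with edgeR 4.0.16 in R 4.3.3 (TMM, filterByExpr, robust quasi-likelihood, 7 residual degrees of freedom), with Benjamini-Hochberg adjustment over 13603 genes. SE comes from the size of a log2 change and the root of its F value. CPM is TMM-scaled. Simulated data with known changes were used to check the fit. Alternatives used DESeq2 1.42.0 and limma 3.58.1 with pseudocounts 1 and 0.1. No label says that samples are separate animals, and p-values then reflect only how these samples vary.

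Genes named are those called, the 2 most abundant per class, the 6 with the largest differences among those called in conditioned KO against WT without both KO libraries 0, and those not tested; exceptions are marked, and genes listed by overlap alone were named after their values were seen. Members and lists were chosen with earlier results of these data known. Of the 9 lists of cell type markers, those for skeletal muscle, keratinocytes, endothelium, macrophages and glia summed to at most 209 CPM in any library, and some of these sums differed between media.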

Additional observations from a re-analysis of the deposited data

How the results depend on the processing

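Counts of called collagen genes moved with several settings. Without both KO libraries 0 they were 1 and 13 for KO against WT in unconditioned and conditioned medium, 8 and 20 for the medium effect in WT and KO, 20 averaged and 9 for the interaction. With the identical libraries kept apart the WT count was 4, and fits of the compared groups only gave 4 in WT and 3 in KO. No share of all genes is given for these fits, so whether collagen genes stood out in them cannot be judged here. DESeq2 gave 4 in WT, 17 in KO and 17 averaged (16 lower and Col9a3 higher). The cause was not tested. Leaving out 1 library at a time gave 0 to 0 and 0 to 14 for KO against WT in unconditioned and conditioned medium, 0 to 6 and 3 to 17 for the medium effect in WT and KO, 6 to 17 averaged and 0 to 7 for the interaction. The shares of all genes called moved too when 1 library was left out. They reached 0.0147% and 33.2% between genotypes, 6.75% for the medium in WT and 10.5% for the interaction. For the medium in KO they ran from 2.36% to 44.9%, and averaged from 8.74% to 41.6%. As a percent of summed FPKM the collagen share was 2.1 and 1.41 in unconditioned and conditioned WT and 2.57 and 1.43 in KO. Single log2 values also changed sign when 1 library was left out: Col2a1 in the WT medium comparison (-0.60 to 0.15, the latter without unconditioned WT library 2), Col6a3 there (-0.25 to 0.041, the latter without unconditioned WT library 0) and Col24a1 in conditioned KO against WT (-1.51 to 0.0048, the latter without conditioned KO library 2).

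With the replicate number as a block the counts were 0 in WT, 11 in KO, 16 averaged and 0 for the interaction. The shares of all genes called were 1.14%, 16.3%, 19.1% and 0.0%. The numbers share no stated source: the deviations of same-numbered libraries correlated at -0.140 and 0.424 in WT and at 0.350, 0.225 and 0.311 in KO, and not every library correlated best with its own number. Scaling by library totals alone shifted the median of all genes by 0.207 in KO. With 2 to 3 libraries a group, small changes cannot be detected.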
